A study of Ovis aries with 41 samples.

Results

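Neurotensin (NTS), neuropeptide Y (NPY), stathmin 2 (STMN2), microtubule associated protein 6 (MAP6) and the ATP-gated ion channel P2RX1 are 5 genes of the 31182 genes counted in sheep tail skin. They were chosen by symbol because earlier results on these libraries had shown higher values toward the tail end in A/A rams. The A/A values are therefore given as a description, with no test, and tests of the 5 genes are limited to the D/D rams. These D/D tests are not independent of the A/A values. Both genotypes were fitted together, with a shared filter on low counts and a shared estimate of the spread. It is not recorded whether D/D values were also in view when the genes were chosen. All 5 genes passed the filter on low counts for the comparison of positions, together with 19444 genes in all.

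RNA was sequenced from skin taken after slaughter from adult rams of the Improved Jezersko–Solčava breed, at the tail base, at mid-tail and at the tail tip. The 4 A/A rams (835507, 871772, 871784 and 871932) were homozygous for the ancestral, short-tail allele of HOXB13. The 3 D/D rams (871787, 871868 and 871869) were homozygous for the derived, long-tail allele, which carries an insertion in the HOXB13 promoter region. Every ram gave 2 libraries per position, except D/D ram 871869 with 1 library at mid-tail, which makes 41 libraries in 21 ram sums. The rams were untreated animals of a single breed, and the samples were whole skin.

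Neurotensin and neuropeptide Y are cut from larger precursors, stored in dense-core vesicles and released by neurons and endocrine cells. Neuropeptide Y is released with noradrenaline by sympathetic fibres, which in skin reach vessels and the muscles of the hair follicles. Stathmin 2 and MAP6 act on microtubules, the tracks of axonal transport. Stathmin 2 binds free tubulin in growing and regenerating axons, and MAP6 stabilises microtubules against cold. P2RX1 opens to extracellular ATP and is best known from smooth muscle and platelets. The cell bodies of sensory and sympathetic neurons lie in ganglia outside the skin, so skin holds mostly their fibres.

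All 5 genes are protein coding in the RefSeq annotation of the build ARS-UI_Ramb_v3.0. NTS lies on chromosome 3 from 122106449 to 122118166, and NPY on chromosome 4 from 73206687 to 73213568. STMN2 lies on chromosome 9 from 55888846 to 55947813 and overlaps a tRNA gene in that annotation. MAP6 lies on chromosome 15 from 53484258 to 53565457, and P2RX1 on chromosome 11 from 24406979 to 24425729. The genes share no chromosome.

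The libraries held 9177395 to 23431409 counts, with a median of 14039720. Values below are CPM, counts scaled to the effective size of each ram sum after TMM normalization. Epidermal and dermal markers summed to between 19546.5 and 45672.3 CPM in every ram sum, against 15.5 to 29.1 CPM for 14 pan-neuronal genes. In bulk skin, fewer cells of a type and less RNA per cell cannot be told apart. The labels do not say whether the 2 libraries of a ram and position came from separate pieces of skin.

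**Figure D1:**
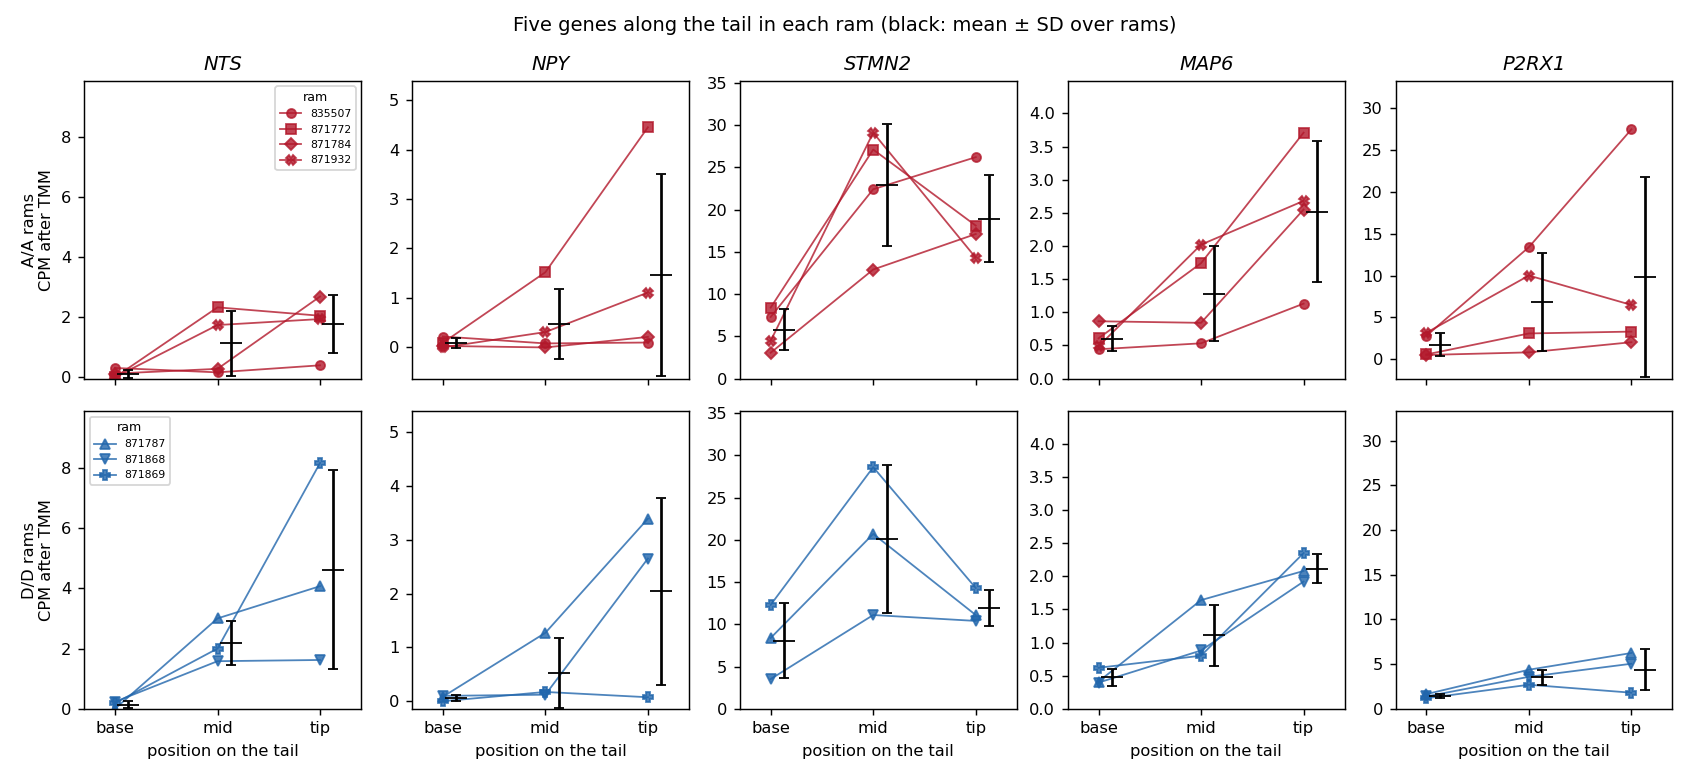
CPM of the 5 genes (vertical axes, linear) at base, mid-tail and tip (horizontal axes) in the 4 A/A rams (red, top) and the 3 D/D rams (blue, bottom). Lines join the positions of a ram, and black marks give the mean ± SD over rams, whose lower bar falls below 0 where a single ram carried the mean. STMN2 was highest at mid-tail in 5 of 7 rams, and MAP6 was highest at the tip in 7 of 7.

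MAP6 and NTS rose in D/D rams at the tip relative to the base, by 2.14 ± 0.39 and 4.76 ± 1.00 on the log2 scale (± SE, n = 3 rams). The adjusted p was 0.0261 for MAP6 and 0.0427 for NTS (edgeR quasi-likelihood test with Benjamini-Hochberg adjustment over all genes). NPY, P2RX1 and STMN2 had positive log2 fold changes that did not pass the adjusted threshold of 0.05. Thus 2 of the 5 genes were called higher, against 0.118% of all genes tested in the same direction. Before adjustment, 5 of the 5 had p under 0.05 with a higher value at the tip, against 4.89% of all genes. These shares, and the one at mid-tail below, are a description and no independent test of the 5 genes. The A/A values that chose the genes entered the same fit.

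NTS was close to absent at the tail base and was counted at the tip in every ram. Its base values in A/A rams were 0.309, 0, 0.123 and 0 CPM (rams 835507, 871772, 871784 and 871932), from 11 counts in all. At mid-tail these rams had 0.163, 2.33, 0.28 and 1.74 CPM, and at the tip 0.398, 2.05, 2.69 and 1.94 CPM, in the same order. Ram 835507 stayed under 0.5 CPM at every position, whereas the other 3 A/A rams had at least 1.94 CPM at the tip.

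D/D rams 871787, 871868 and 871869 had NTS at 0, 0.231 and 0.186 CPM at the base. They had 3.0, 1.58 and 2.0 CPM at mid-tail, and 4.07, 1.62 and 8.16 CPM at the tip. Every D/D ram followed the order base, mid-tail, tip, and no tip or mid-tail value overlapped a base value. The order of the 2 distal positions was weak in ram 871868, whose values there differed by 0.0268 on the log2(CPM + 0.5) scale. The highest NTS level of all, 8.16 CPM from 222 counts, was the tip of D/D ram 871869.

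Summed over rams, NTS was 16.2-fold higher at the tip than at the base in A/A rams (95% exact interval 8.87 to 33.0) and 29.1-fold higher in D/D rams (16.8 to 55.1). The intervals cover counting error only and rest on 11 base counts in A/A rams and 13 in D/D rams. The fitted change in A/A rams was 3.79 ± 0.97 on the log2 scale. At mid-tail, NTS differed from the base by 3.01 in A/A rams and by 3.90 in D/D rams, the D/D change with an adjusted p of 0.430. The D/D call at the tip was lost when any D/D ram was left out (adjusted p 0.111 to 0.412), with limma-voom (adjusted p 0.066) and without the ram as a block (adjusted p 0.239).

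NPY was near 0 at the base in all 7 rams and exceeded 1 CPM at the tip in 4 of them, so the rams split widely. In A/A rams 835507, 871772, 871784 and 871932 the base held 0.221, 0.0932, 0.0308 and 0 CPM, or 8 counts in all. The tips of the same rams held 0.0995, 4.45, 0.213 and 1.11 CPM. Ram 871772 alone gave 161 of the 197 A/A tip counts, and ram 835507 was lower at the tip than at the base, on 3 and 5 counts.

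NPY in D/D rams 871787, 871868 and 871869 had 3.39, 2.65 and 0.0735 CPM at the tip, against 0.0822, 0.0988 and 0 CPM at the base. The tips of 2 rams stood well above every base value, and the tip of ram 871869, with 2 counts, did not. Ram 871869 thus had the highest NTS tip and the lowest NPY tip of the 7 rams. At mid-tail, NPY had 0.0817, 1.52, 0 and 0.311 CPM in the A/A rams and 1.27, 0.121 and 0.172 CPM in the D/D rams, each in the order above.

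Among A/A rams the fitted NPY change at the tip over the base was 3.46 ± 1.01 on the log2 scale, and with a ram left out it lay between 2.16, without ram 871772, and 5.29, without ram 835507. The change in D/D rams was 4.87 ± 1.1 on the log2 scale, with an adjusted p of 0.060. It passed the threshold with DESeq2 (4.75, adjusted p 0.0406) and without the filter on low counts (4.89, adjusted p 0.0292). The summed ratio of tip over base was 21 in A/A rams (10.4 to 49.3) and 35.6 in D/D rams (15 to 110.9), on 8 base counts in A/A rams and 5 in D/D rams.

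STMN2 was the gene of the 5 with the most counts, and it was highest at mid-tail rather than at the tip in 5 of 7 rams. Its base values were 7.28, 8.39, 3.05 and 4.45 CPM in A/A rams 835507, 871772, 871784 and 871932, and 8.38, 3.52 and 12.3 CPM in D/D rams 871787, 871868 and 871869. At mid-tail the values were 22.4, 27.1, 12.9 and 29.1 CPM in A/A rams and 20.7, 11.1 and 28.6 CPM in D/D rams. At the tip they were 26.2, 18.1, 17.1 and 14.3 CPM in A/A rams and 11.1, 10.4 and 14.3 CPM in D/D rams. In A/A rams, every mid-tail and tip value lay above every base value, whereas in D/D rams both distal positions overlapped the base.

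STMN2 in A/A rams differed from the base by 2.03 at mid-tail and by 1.79 ± 0.26 at the tip on the log2 scale. The change at mid-tail in D/D rams was 1.36 and alike in all 3 rams, whose differences in log2(CPM + 0.5) were 1.26, 1.52 and 1.18. Its unadjusted p was 0.000275 and its adjusted p 0.315 in the edgeR test, in which none of the 19444 genes passed (0%). All 5 of the chosen genes had an unadjusted p under 0.05 with higher mid-tail values, against 2.77% of all genes. The same change passed with DESeq2 (adjusted p 0.00935). At the D/D tip the change from the base was 0.73 ± 0.29, with an adjusted p of 0.307, and the tip stood 0.63 below mid-tail (adjusted p 1).

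MAP6 gave the most even pattern, with the tip above the other positions in every ram. A/A rams 835507, 871772, 871784 and 871932 had 1.13, 3.71, 2.55 and 2.68 CPM at the tip, against 0.441, 0.606, 0.864 and 0.485 CPM at the base. D/D rams 871787, 871868 and 871869 had 2.08, 1.92 and 2.35 CPM of MAP6 at the tip, against 0.411, 0.395 and 0.619 CPM at the base. Tip and base did not overlap in either genotype. The 3 D/D rams differed little in this change, with 1.5, 1.44 and 1.35 on the log2(CPM + 0.5) scale (SD 0.0759).

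Mid-tail values of MAP6 lay between those of the base and tip in 6 of 7 rams. They were 0.531, 1.74, 0.84 and 2.02 CPM in A/A rams and 1.64, 0.88 and 0.801 CPM in D/D rams. The A/A change was 1.96 ± 0.34 at the tip and 0.98 at mid-tail on the log2 scale. The D/D mid-tail change was 1.19 (adjusted p 0.606), and the D/D tip stood 0.95 above mid-tail (adjusted p 1). The D/D call at the tip was lost without any of the 3 D/D rams (adjusted p 0.152 to 0.207) and without the ram as a block (adjusted p 0.242), while the log2 fold change with a ram left out ranged from 2.07 to 2.27.

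P2RX1 had the widest spread between rams within a group of the 5 genes (SD 1.12 in log2(CPM + 0.5)), and A/A ram 835507 stood highest. A/A rams 835507, 871772, 871784 and 871932 had 27.5, 3.29, 2.02 and 6.48 CPM at the tip, against 2.78, 0.559, 0.494 and 3.15 CPM at the base. The mid-tail values of these rams were 13.4, 3.07, 0.805 and 10 CPM. The tip was above the base in each A/A ram, but rams 835507 and 871932 already had more P2RX1 at the base than ram 871784 had at the tip.

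P2RX1 in D/D rams 871787, 871868 and 871869 had 6.24, 5.04 and 1.8 CPM at the tip, against 1.64, 1.38 and 1.18 CPM at the base, with 4.37, 3.58 and 2.69 CPM at mid-tail. Both distal positions lay above the base in every D/D ram, with no overlap. The fitted A/A change was 2.27 ± 0.36 at the tip and 1.81 at mid-tail on the log2 scale. The D/D change at the tip was 1.52 ± 0.39, with an adjusted p of 0.0917, and at mid-tail 1.31 with an adjusted p of 0.511. DESeq2 gave the same change at the tip an adjusted p of 0.0078.

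**Figure D2:**
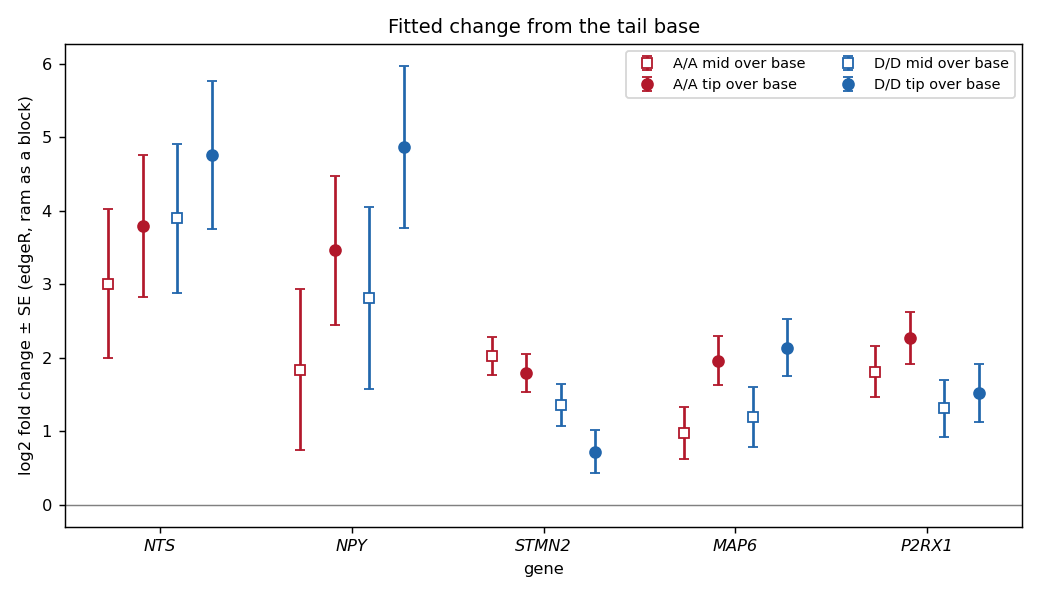
Fitted log2 fold changes ± SE (vertical axis) of the 5 genes (horizontal axis) at mid-tail (open squares) and tip (filled circles) over the base, in A/A rams (red) and D/D rams (blue). Every value is above 0, and the peptide genes NTS and NPY have the widest errors, with SE near 1 at the tip.

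**Figure D3:**
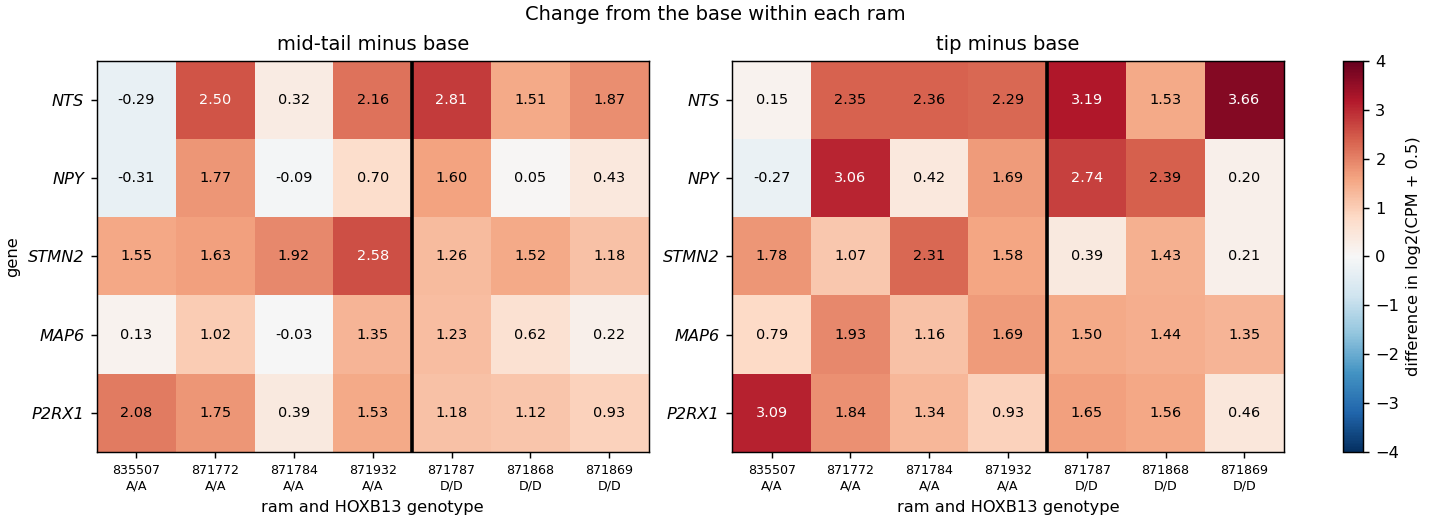
Difference in log2(CPM + 0.5) of each ram (columns, A/A left of the line and D/D right of it) at mid-tail and at the tip minus its base, for the 5 genes (rows). At the tip the only difference below 0 is that of NPY in A/A ram 835507, which also has the highest P2RX1 change. Thus 4 of the 5 genes were higher at the tip in every one of 7 rams, beside 3.4% of all genes tested. The A/A values in this count are of the kind that chose the genes.

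Complete separation of distal from base values was counted beside the same over all genes. In A/A rams, which chose the genes, 3 of the 5 (NTS, STMN2 and MAP6) had every tip value above every base value, beside 1.48% of all genes tested, and 1 (STMN2) did at mid-tail, beside 0.792%. Among D/D rams, 3 of the 5 genes (NTS, MAP6 and P2RX1) had such a tip, against 7.56% of all genes. At D/D mid-tail 4 of the 5 did (NTS, NPY, MAP6 and P2RX1), against 6.87%. For NPY this rested on few counts, with 4 and 3 at mid-tail in rams 871868 and 871869, beside 3 at the base of ram 871868. The D/D counts of separation are also a description and no independent test. Whether D/D values were in view when the genes were chosen is not recorded. None of the 5 genes passed between tip and mid-tail in D/D rams (adjusted p 1 for each), and the edgeR test called 0% of all genes there. The unadjusted p was 0.0202 for MAP6, 0.0359 for NPY and 0.0429 for STMN2, which was lower at the tip.

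The genotypes were set side by side at each position, as values only. At the tip, A/A rams averaged 1.77 ± 0.973 CPM of NTS and D/D rams 4.62 ± 3.31 CPM (SD, n = 4 and 3). For STMN2 the tip means were 18.9 ± 5.08 CPM in A/A rams and 11.9 ± 2.11 CPM in D/D rams. For P2RX1 they were 9.82 ± 11.9 and 4.36 ± 2.30 CPM, for MAP6 2.52 ± 1.06 and 2.12 ± 0.218 CPM, and for NPY 1.47 ± 2.04 and 2.04 ± 1.74 CPM, in A/A and D/D rams. The ranges of the 2 genotypes overlapped for NTS, NPY, MAP6 and P2RX1, and for STMN2 the lowest A/A tip and the highest D/D tip were both 14.3 CPM.

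The fitted log2 fold changes of A/A over D/D at the tip were -1.37 for NTS, -0.45 for NPY, 0.68 for STMN2, 0.26 for MAP6 and 1.19 for P2RX1. The value of P2RX1 rested on A/A ram 835507 and was -0.14 without it. That of NPY was -2.11 without A/A ram 871772. At the base only 3 of the 5 genes passed the filter on low counts for this comparison, with -0.48 for STMN2, 0.34 for MAP6 and 0.32 for P2RX1. At mid-tail 4 passed, with -0.97 for NTS, 0.17 for STMN2, 0.20 for MAP6 and 0.93 for P2RX1.

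The 5 genes did not share a single pattern over the 21 ram sums. The pairs most alike were NTS with MAP6 (Pearson's r 0.819, Spearman's rho 0.788) and NPY with MAP6 (0.703 and 0.592). STMN2 and P2RX1 followed with r of 0.575 (rho 0.517) and NTS and NPY with 0.557 (rho 0.661). P2RX1 had r under 0.3 with NTS, NPY and MAP6, while rho was 0.36, 0.544 and 0.392 in that order. These correlations describe libraries of 7 rams that share animals and positions, and carry no p.

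Among 12926 genes with a symbol and a mean of at least 1 CPM, those most like each of the 5 over the ram sums were found by Pearson's r on log2(CPM + 0.5). MAP6 was most like UNC5C, a netrin receptor of axon guidance (r 0.945), followed by the matrix genes HAPLN1 (0.85) and TNC (0.845). NTS was most like the cartilage matrix gene COMP (0.877), the kinase gene RIPK4 (0.868) and the positional gene HOXC10 (0.862). STMN2 was most like the T-box gene TBX3 (0.85), then ANKRD37 (0.776) and the Wnt modulator gene DKK3 (0.77).

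NPY was most like IL36G, an epidermal cytokine gene (0.822), the keratin gene KRT12 (0.806) and CTNNBIP1 (0.8). P2RX1 was most like AHRR, the repressor of the aryl hydrocarbon receptor (0.882), LDB3, a gene of the muscle Z-disc (0.88), and SCUBE2 (0.869). No gene was named for more than a single member of the 5. Ranking by Spearman's rho instead kept no more than 1 of the first 3 for 4 of the 5 genes. For the remaining gene it kept most of them.

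Few receptors and relatives of the 5 genes were called. The neurotensin receptor genes NTSR1 and NTSR2 had 35 and 19 counts over all 41 libraries, and the neuropeptide Y receptor gene NPY2R had 0. These were too few to test. SORT1, the sorting receptor that also binds neurotensin, averaged 215.7 ± 26.0 CPM at the tip and 226.2 ± 5.83 CPM at the base in A/A rams, with a log2 fold change of -0.07 (adjusted p 0.855). In D/D rams its change was 0.19 (adjusted p 0.654).

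NPY1R, the receptor by which neuropeptide Y constricts vessels, had changes at the tip of 0.30 in A/A rams (adjusted p 0.768) and -0.27 in D/D rams (adjusted p 0.841). NPY5R had 0.50 (adjusted p 0.576) and 0.98 (adjusted p 0.358). None of the 3 receptor genes tested was called in either genotype (edgeR). At an unadjusted p under 0.05 were 0 in A/A rams, against 14.4% of all genes, and 1 (33.3%) in D/D rams, against 12.3%.

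Of the genes of peptide processing and dense-core vesicles, 2 of 9 tested (22.2%) passed in A/A rams at the tip, against 1.63% of all genes. Before adjustment, 7 of the 9 (77.8%) had p under 0.05 there (edgeR), against 14.4% of all genes, and 6 changes were above 0. At the D/D tip 0 of the 9 had such a p, against 12.3% of all genes, and 6 changes were above 0. The gene lists were chosen with earlier results of these data known. Shares of list genes, here and in the other paragraphs, are therefore a description and no test of a list. DPP4, a peptidase that trims neuropeptide Y, fell by 1.34 on the log2 scale (adjusted p 0.00609), with 32.3 ± 15.8 CPM at the tip and 72.6 ± 12.1 CPM at the base (SD, n = 4). MME, neprilysin, which degrades neurotensin and other small peptides, rose by 1.17 (adjusted p 0.0355), with 11.6 ± 5.29 CPM at the tip and 5.01 ± 1.92 CPM at the base. In D/D rams neither passed, with -0.47 for DPP4 (adjusted p 0.461) and 0.38 for MME (adjusted p 0.648). The difference between genotypes in the DPP4 change had an adjusted p of 0.789, so a genotype difference was not shown. PCSK1, which cuts prohormones, had -1.23 in A/A rams (adjusted p 0.0968) and 0.44 in D/D rams (adjusted p 0.696).

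None of the other stathmins was called higher at the tip. STMN1, the widely expressed stathmin, fell by 0.60 in A/A rams (adjusted p 0.0360) and had -0.15 in D/D rams (adjusted p 0.751). STMN3 and STMN4, the other neural stathmins, stayed at means of at most 0.35 CPM in every group of rams and were not called. MAP6D1, a relative of MAP6, had 0.40 in A/A rams (adjusted p 0.375) and 0.32 in D/D rams (adjusted p 0.614). MAP2, a dendritic microtubule protein, had 0.57 (adjusted p 0.194) and 0.60 (adjusted p 0.285), and the tubulin gene TUBB2B had -0.63 (adjusted p 0.242) and 0.28 (adjusted p 0.743).

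Among the other P2X receptors, P2RX7, best known from immune cells, rose by 0.86 at the A/A tip (adjusted p 0.0368), with 7.50 ± 3.81 CPM at the tip and 4.04 ± 1.66 CPM at the base (SD, n = 4). Its D/D change was 0.27 (adjusted p 0.678). P2RX4 and P2RX5 had A/A changes of 0.18 and -0.35 and D/D changes of -0.02 and -0.06, and neither was called. P2RX6, at means under 0.5 CPM, had -0.69 (adjusted p 0.702) and -1.97 (adjusted p 0.366). The G protein-coupled ADP receptor genes P2RY1 and P2RY12 had 0.35 (adjusted p 0.352) and -0.63 (adjusted p 0.688) in A/A rams, and 0.54 (adjusted p 0.226) and -1.80 (adjusted p 0.289) in D/D rams. P2RX2 had no counts and P2RX3, a receptor of sensory neurons, had 8 counts over all libraries.

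**Figure D4:**
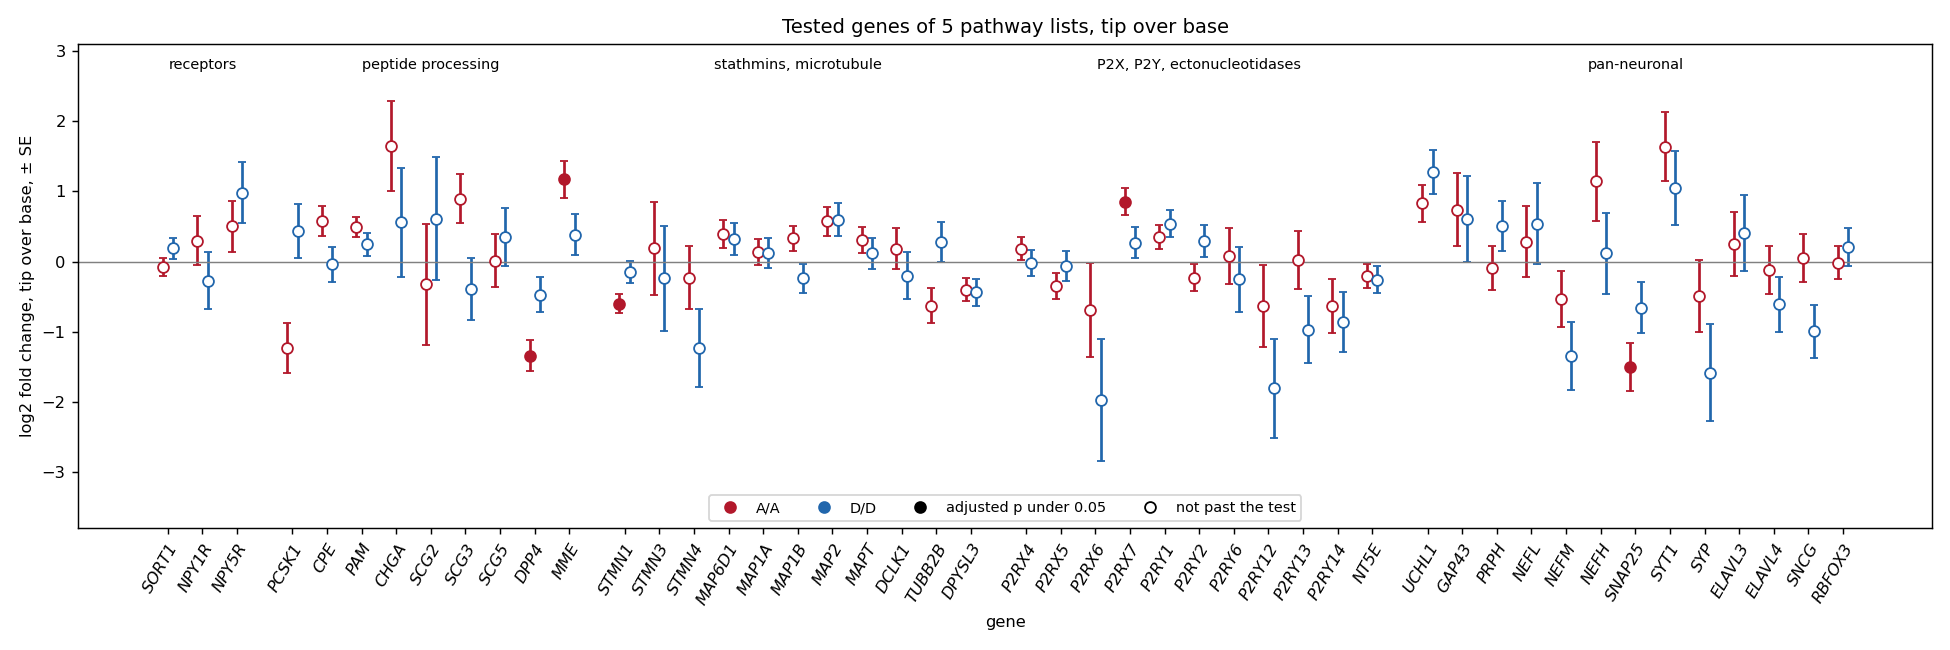
Log2 fold changes ± SE at the tip over the base (vertical axis) for the 47 tested genes of 5 pathway lists (horizontal axis), in A/A rams (red) and D/D rams (blue). Filled circles passed an adjusted p of 0.05, which holds for MME and P2RX7 above 0 and DPP4, STMN1 and SNAP25 below 0, all in A/A rams.

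None of the 13 pan-neuronal, 6 sympathetic and cholinergic and 9 sensory genes tested from the lists was called higher at the tip by edgeR. Of the pan-neuronal genes, 3 (23.1%) in A/A rams had an unadjusted p under 0.05, against 14.4% of all genes, with UCHL1 and SYT1 higher and SNAP25 lower. In D/D rams 4 (30.8%) did, against 12.3%, with UCHL1 higher and NEFM, SNCG and SYP lower. Of the sensory genes 2 did in A/A rams and 0 in D/D rams, and of the sympathetic and cholinergic genes 0 in either. Over all pathway lists, DESeq2 called 4 genes higher in A/A rams and 1 in D/D rams. At the A/A tip SNAP25, of the synaptic release machinery, fell by 1.5 (adjusted p 0.0411). UCHL1, abundant in neurons and a stain for skin nerve fibres, had 0.83 in A/A rams (adjusted p 0.141) and 1.28 in D/D rams (adjusted p 0.0743). SYT1, the calcium sensor of release, had 1.64 (adjusted p 0.112) and 1.05 (adjusted p 0.440). TH, the first enzyme of noradrenaline synthesis, had -0.64 (adjusted p 0.417) and -0.26 (adjusted p 0.837), and the noradrenaline transporter gene SLC6A2 had 0.20 (adjusted p 0.671) and 0.18 (adjusted p 0.777). DDC, the next enzyme of that synthesis, had -0.97 (adjusted p 0.669) and -1.22 (adjusted p 0.647).

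Other neuropeptide precursors had changes of either sign, and none of 12 tested was called (edgeR). At an unadjusted p under 0.05 were 2 (16.7%) in A/A rams, against 14.4% of all genes, and 1 (8.33%) in D/D rams, against 12.3%. TAC1, the precursor of substance P, had -0.80 at the A/A tip (adjusted p 0.287) and -1.67 at the D/D tip (adjusted p 0.0650). NMU, neuromedin U, had 1.76 (adjusted p 0.223) and 0.33 (adjusted p 0.906), and NMB, neuromedin B, had -0.74 (adjusted p 0.530) and 1.09 (adjusted p 0.457). Among sensory genes, the cold channel gene TRPM8 had 1.83 (adjusted p 0.235) and 1.20 (adjusted p 0.541). RET, the receptor kinase of GDNF family ligands, had -0.88 (adjusted p 0.180) and -0.28 (adjusted p 0.794), and the sodium channel gene SCN9A had 0.73 (adjusted p 0.389) and -0.73 (adjusted p 0.556). Among neurotrophic factors, NTF3 had 0.21 (adjusted p 0.752) and -0.77 (adjusted p 0.213), GDNF had 0.67 (adjusted p 0.294) and 0.16 (adjusted p 0.888), and NTF4 had -0.08 (adjusted p 0.907) and -0.55 (adjusted p 0.333).

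Over the 9 pathway lists, 107 of 112 genes were in the count table and 81 were tested. At the A/A tip 2 rose and 3 fell, or 6.17% against 1.63% of all genes, and the median log2 fold change was 0.10 against -0.01 over all genes. At the D/D tip 0 of 81 passed in the edgeR test, against 0.566% of all genes, with 14 (17.3%) at an unadjusted p under 0.05 against 12.3% of all genes, and a median of -0.04 against -0.01. DESeq2 called 1 higher and 1 lower there. Since the lists were chosen with earlier results known, these shares are a description and no test of the lists. The A/A counts depended on single rams, with 0 to 2 rises and 1 to 2 falls when a ram was left out. Without ram 871932 there were 0 rises, and without 835507 or 871772 there was 1.

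Markers of cells that could carry these transcripts were read beside the 5 genes. The 14 pan-neuronal genes summed to 15.5 to 26.4 CPM at the tip and 16.4 to 25.1 CPM at the base in A/A rams, and to 20.3 to 25.6 CPM at the tip and 20.9 to 29.1 CPM at the base in D/D rams. These ranges overlapped in both genotypes, and no gene of the list was at 0 counts in any group of rams. The 11 Schwann cell markers summed to 218.9 to 289.9 CPM at the D/D tip and 253.3 to 345.4 CPM at the D/D base. Among them the myelin gene MBP fell at the D/D tip, by 1.13 (adjusted p 0.0340).

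Merkel cell markers summed to 57.8 to 91.8 CPM at the tip and 82.9 to 162.8 CPM at the base in A/A rams, and to 66.7 to 83.7 CPM at the tip and 118.5 to 161.7 CPM at the base in D/D rams. Nearly all of this sum was KRT8 and KRT18, keratins that other skin epithelia also express. SOX2, a transcription factor gene of Merkel cells, went the other way, with 0.579 ± 0.275 CPM at the tip and 0.176 ± 0.0997 CPM at the base in A/A rams, and 0.469 ± 0.187 CPM at the tip and 0.126 ± 0.00476 CPM at the base in D/D rams (SD, n = 4 and 3). None of the 4 Merkel genes tested was called (edgeR), with an adjusted p for SOX2 of 0.0858 in A/A rams and 0.149 in D/D rams. At an unadjusted p under 0.05 were 3 of the 4 in each genotype, against 14.4% of all genes in A/A rams and 12.3% in D/D rams, with SOX2 higher and KRT8 and KRT18 lower. The part of these cells in the results was not tested.

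NTS and MAP6 had no correlation above 0.416 with the summed markers of the 9 lists, and their largest in size were negative. NTS had r of -0.625 (rho -0.563) with the mast cell and myeloid markers and -0.62 (rho -0.551) with the platelet markers, and MAP6 had -0.569 with both (rho -0.574 and -0.532). The mast cell and myeloid markers summed to 37.6 to 77.5 CPM at the tip and 44.5 to 74.8 CPM at the base in A/A rams, and to 28.6 to 31.4 CPM at the tip and 38.7 to 67.0 CPM at the base in D/D rams. Of them CSF1R, the receptor of a macrophage growth factor, fell at the D/D tip by 1.07 (adjusted p 0.0427) and had -0.47 at the A/A tip (adjusted p 0.264).

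LYVE1, a receptor of lymphatic endothelium and some macrophages, fell at the A/A tip by 2.23 (adjusted p 0.0254) and at the D/D tip by 2.91 (adjusted p 0.0266). The lymphatic list summed to 85.2 to 190.9 CPM at the tip and 81.0 to 191.1 CPM at the base in A/A rams, and to 81.2 to 115.5 CPM at the tip and 128.8 to 159.4 CPM at the base in D/D rams. The largest correlations of STMN2 in size were with the Merkel cell markers (r -0.413, rho -0.309) and the smooth muscle markers (r 0.411, rho 0.361). The part of these cells in the values of NTS, MAP6 and STMN2 was not tested.

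NPY varied with the epidermal and dermal markers over the ram sums (r 0.742, rho 0.723), the highest of its correlations with the 9 marker lists. These markers summed to 24722.0 to 45672.3 CPM at the tip and 29805.3 to 36244.8 CPM at the base in A/A rams, and to 21705.3 to 44860.4 CPM at the tip and 27680.2 to 31318.3 CPM at the base in D/D rams. The sum mixes keratins and collagens, which differed in direction. KRT1, a keratin of the differentiated epidermis, rose at the A/A tip by 1.45 (adjusted p 0.0418) and had 1.21 at the D/D tip (adjusted p 0.167). COL1A1, a main collagen of the dermis, averaged 3777.8 ± 2326.5 CPM at the tip and 8050.5 ± 1955.4 CPM at the base in A/A rams, and 3576.0 ± 1809.9 CPM at the tip and 6540.5 ± 1909.3 CPM at the base in D/D rams. Its changes were -1.60 (adjusted p 0.0976) and -0.90 (adjusted p 0.498), those of COL3A1 were -1.39 (adjusted p 0.0826) and -0.86 (adjusted p 0.432), and those of COL1A2 were -1.13 (adjusted p 0.174) and -0.71 (adjusted p 0.545), for A/A and D/D rams. The part of skin composition in the NPY values was not tested.

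P2RX1 varied most with the 10 smooth muscle markers (r 0.71, rho 0.584). A/A ram 835507, with the highest P2RX1 at the tip, had 4397.4 CPM of these markers at the tip and 1587.7 CPM at the base. A/A ram 871784, with the lowest P2RX1 of the A/A rams at both, had 1297.1 CPM at the tip and 1313.8 CPM at the base. At mid-tail, A/A rams 871932 and 871772 had similar marker sums, 3677.3 and 3456.4 CPM, beside 10 and 3.07 CPM of P2RX1. Both were lower at the base, with marker sums of 1983.2 and 1634.8 CPM beside 3.15 and 0.559 CPM of P2RX1. The median marker sum of A/A rams was 3566.8 CPM at mid-tail and 1611.2 CPM at the base. In D/D rams it was 1833.1 CPM at mid-tail and 2288.7 CPM at the base. In the D/D rams the markers summed to 1669.4 to 2169.3 CPM at the tip and 1673.3 to 2730.4 CPM at the base, and P2RX1 was higher at the tip of each.

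None of the 10 smooth muscle markers was called at the tip in either genotype (edgeR, with 2 at an unadjusted p under 0.05 in A/A rams and 1 in D/D rams). Platelet markers, the other known site of P2RX1, summed to 8.3 to 15.3 CPM at the tip and 9.83 to 15.8 CPM at the base in A/A rams, and to 7.28 to 12 CPM at the tip and 10 to 14.9 CPM at the base in D/D rams. These ranges at the tip reached no higher than those at the base. The part of smooth muscle in the A/A differences between rams was not tested.

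**Figure D5:**
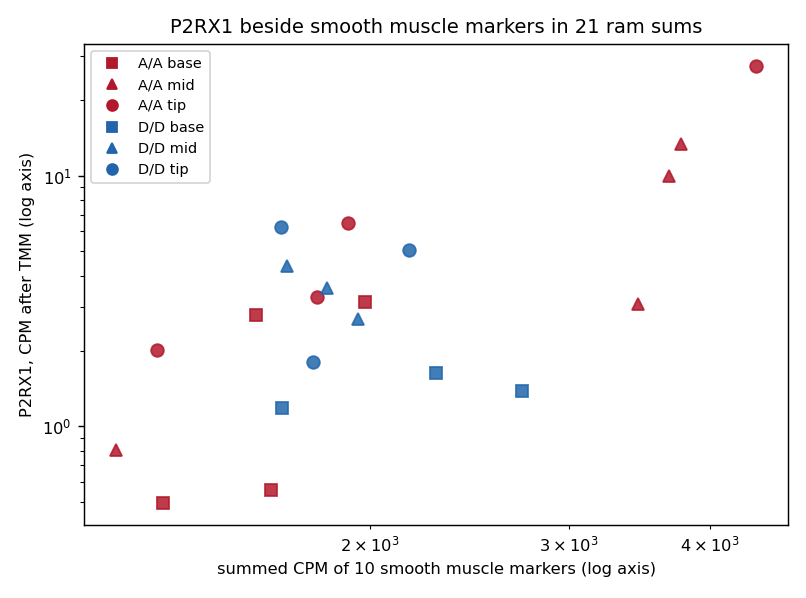
P2RX1 level (vertical log axis, CPM) against the summed CPM of 10 smooth muscle markers (horizontal log axis) in the 21 ram sums, red for A/A and blue for D/D, with squares for base, triangles for mid-tail and circles for tip. The A/A tip of ram 835507 lies at the upper right (27.5 and 4397.4 CPM), and the D/D tips lie above the D/D bases. The marker sum was lower at the tip in D/D rams 871787 and 871868. It was higher at the tip in D/D ram 871869, with 1781.0 CPM against 1673.3 CPM at the base.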

How the data were processed

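The deposited values are raw counts per RefSeq gene and strand. Per the labels and the study's methods, the authors made them from poly(A)-selected CorALL libraries checked with FastQC 0.11.9, aligned to ARS-UI_Ramb_v3.0 with ContextMap 2 2.7.9 and BWA and counted with featureCounts, whose version is not given in the sources used here. The tip columns are listed as estimated counts in the unit table, because their names were read as genome positions, but the deposited values are whole, so rounding changed nothing.

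Counts from both libraries per ram and position were added up and tested with edgeR 4.0.16 (R 4.3.3, quasi-likelihood, TMM, filterByExpr), with position within genotype and the ram as a block, over all 21 ram sums. The A/A over D/D comparison used the 7 ram sums of a position, after the same filter (17738, 17996 and 17842 genes at base, mid-tail and tip). p-values were adjusted after Benjamini-Hochberg over all genes, and "rose" and "fell" mean an adjusted p under 0.05. The same ram gave all positions, which is where the pairing comes from, and same-ram deviations correlated over 0.1 in 20 of 21 pairs. The SE of a log2 fold change along the tail was derived from its edgeR test in the fit of all 21 ram sums. It is the size of the change divided by the square root of the F statistic, and was not estimated on its own. Log2 levels had 0.5 CPM added. Intervals of summed ratios are exact conditional binomial intervals at 95%. p-values measure the spread between rams, except in the fit of single libraries named in the next paragraph.

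The members and lists were chosen with earlier results of these data known. Genes were named by rule, as list genes past the threshold, otherwise the 3 of each pathway list with the smallest p at the tip, together with the receptors and relatives of the 5 genes. Markers of other cell types came from 9 further lists. Alternatives were DESeq2 1.42.0, limma-voom 3.58.1, other scalings and filters, single libraries, each genotype on its own, no block and each ram left out. The scripts were tested on simulated data. No sequences were read, since no genome was used here. A result for a withheld item is not reported here.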

Additional observations from a re-analysis of the deposited data

How the results depend on the processing

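Of 180 alternatives for tested D/D values, 160 kept direction and side of the threshold, 11 passed where the main test had not and 9 no longer passed, and no result reversed. The causes were not tested. For NTS at the D/D tip (main 4.76), the log2 fold change was 5.03 with limma-voom, 4.95 with no replicate block and 4.25 to 5.85 with a ram left out, all not passing. For MAP6 it was 2.14 with no replicate block and 2.07 to 2.27 with a ram left out, also not passing. NPY passed at 4.75 with DESeq2, 4.89 with no filter on low counts, 4.83 with single libraries (adjusted p 0.000357) and 4.9 with the genotype on its own. P2RX1 passed at 1.52 with DESeq2, single libraries and the genotype on its own. At D/D mid-tail, NTS passed at 4.01 with single libraries, and STMN2 at 1.37 with DESeq2, 1.34 with single libraries and 1.36 with the genotype on its own. The fit of single libraries treats the 2 libraries of a ram and position as independent samples, although they come from the same animal. Its p-values do not measure the spread between rams, and its passes, which are among the 11, rest on no further animals. Pathway genes higher at the A/A tip (main 2) were 4 with DESeq2, 8 with single libraries, 0 with no replicate block or the genotype on its own and 0 to 2 with a ram left out, and lower genes (main 3) were 5, 0 and 1 with single libraries, no replicate block and the genotype on its own, and 1 to 2 with a ram left out. At the D/D tip (main 0), 1, 3 and 2 rose with DESeq2, single libraries and the genotype on its own, and 1, 1, 2 and 2 fell with DESeq2, no filter, single libraries and the genotype on its own. Of 315 A/A values without a test, 9 moved by more than the spread between rams, among them NTS at the A/A tip (5.36) and mid-tail (4.6) without ram 835507, and NPY at A/A mid-tail, which was 3.45 without ram 835507 and 0.42 without ram 871772. NTS and NPY at the base rest on 5 to 13 counts per genotype, which limits their fold changes.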

Other observations

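The 2 libraries of a ram and position differed most for P2RX1 among the 5 genes, with a median absolute difference of 0.613 in log2(CPM + 0.5) over 20 pairs and a highest of 2.04. The pair with that difference was A/A ram 871784 at mid-tail, which had 23 counts of P2RX1 in the first library and 0 in the second. STMN2 followed with a median of 0.597 and a highest of 1.55, and in the first and second library of D/D ram 871787 at the tip it had 212 and 50 counts. Medians were 0.472 for NTS, 0.323 for NPY and 0.274 for MAP6. The SD between rams within a group was 1.12 for P2RX1, 0.981 for NPY, 0.74 for NTS, 0.564 for STMN2 and 0.424 for MAP6. For STMN2 the 2 libraries of a ram thus differed about as much as the rams did.

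In 15 groups of 4 A/A rams, no ram stood apart from the others by Dixon's criterion at the 95% level.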
